A study of Saccharomyces bayanus x Saccharomyces cerevisiae with 8 samples.

Results

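YLR179C is a gene of Saccharomyces cerevisiae on the right arm of chromosome XII, next to and similar to YLR178C (TFS1). Its expression was measured for each allele in the yeast strain OZY27, a diploid hybrid with a genome of S. cerevisiae and a genome of Saccharomyces bayanus. The pair was chosen by the ratio of the alleles of YLR179C, which is among the largest in the data, and YLR179C is 1 of the 4238 orthologs of the deposited table. YLR178C was not analysed here. Because that ratio chose the gene, its values are given as a description and without a test.

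Tfs1 belongs to the phosphatidylethanolamine-binding proteins, a family found from bacteria to humans whose members bind lipids and inhibit proteases or signalling enzymes. In S. cerevisiae Tfs1 inhibits the vacuolar protease carboxypeptidase Y, and its gene was found as a suppressor of a defect in CDC25, the activator of Ras. The protein encoded by YLR179C resembles Tfs1, and its function is unknown. In a hybrid both alleles of a gene sit in the same nucleus and meet the same regulatory proteins, so their levels can be compared within the same cells.

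The hybrid joins an S. cerevisiae parent isogenic to W303, with the markers his3 leu2 lys2 trp1 ura3, to an S. bayanus parent derived from CBS 4001, with the markers ade2 his3 lys2. All samples were this strain, grown untreated at 25 °C in YPD, a rich medium with glucose, and harvested in log phase, so they share every marker, and no treated group or parental strain was analysed here. The 8 samples are sequencing lanes of 2 libraries, 1 from each of 2 cultures. Of the sequencing sites, UCB ran lanes 1, 2 and 5 of culture 1 with lanes 3 and 4 of culture 2, and UCR ran lanes 6 and 8 of culture 1 with lane 7 of culture 2. A lane held 2350222 to 3159446 reads assigned to an allele. Lanes of a library are repeat runs, so n = 2 cultures.

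The S. cerevisiae allele of YLR179C supplied nearly all of the gene's reads. In culture 1 it had 1245, 1343, 1310, 1378 and 1290 reads in lanes 1, 2, 5, 6 and 8. The S. bayanus allele had 15, 15, 18, 25 and 17 reads in the same lanes. In culture 2 the S. cerevisiae allele had 1245, 1019 and 1062 reads in lanes 3, 4 and 7, and the S. bayanus allele had 26, 24 and 30. The S. cerevisiae count was the higher in each of the 8 lanes. The highest S. bayanus count, 30, stood against the lowest S. cerevisiae count, 1019. The gene was chosen by its allele ratio, so this gap is a description. Summed over lanes, 90 S. bayanus and 6566 S. cerevisiae reads were counted in culture 1, and 80 and 3326 in culture 2.

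Scaled to the reads of its own genome, the S. cerevisiae allele had a level of 884 ± 42.6 CPM (reads scaled to that total) and the S. bayanus allele 15.2 ± 4.61 (SD, n = 2). The lanes of culture 1 lay between 863 and 991 CPM for the S. cerevisiae allele and between 9.36 and 16.2 for the S. bayanus allele. Those of culture 2 lay between 747 and 959 for the S. cerevisiae allele and between 15.4 and 24.1 for the S. bayanus allele. For each allele alone the lanes of the cultures overlapped. The gap between the alleles was far larger than the spread between lanes of either one.

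**Figure D1:**
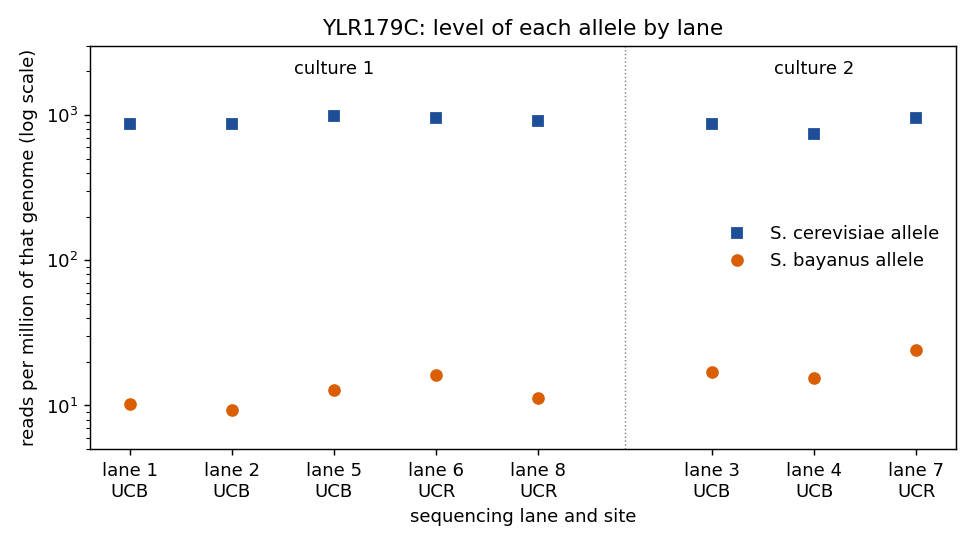
Level of each YLR179C allele in the 8 lanes, in CPM of that genome on a log scale; each point is 1 lane, placed by culture and site. The S. cerevisiae allele lies between 747 and 991 in every lane and the S. bayanus allele between 9.36 and 24.1.

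Per mappable base, the S. cerevisiae allele was 84.1-fold above the S. bayanus allele in culture 1 and 50.8-fold above it in culture 2, a mean of 67.5 ± 23.5 (SD, n = 2). The log2 ratio of S. bayanus to S. cerevisiae fitted with edgeR over both cultures was -6.05, or 66.2-fold. Lane by lane it ran from -6.62 in lane 2 of culture 1 to -5.42 in lane 7 of culture 2. The median over the 4197 genes that had at least 10 reads in each culture was 0.00 and the median size 0.37. In the authors' deposited table the natural log ratios of YLR179C are -4.35 for biological replicate 1 and -3.79 for biological replicate 2, and the gene holds the call for a higher S. cerevisiae allele.

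By this fitted ratio, YLR179C was the fifth gene of 4197 toward S. cerevisiae. The gene just above it in that order, YGL255W, had a log2 ratio of -6.27. The gene just below it, YDR273W, had -5.06 and only 4 S. bayanus reads in each culture, so its ratio is the less certain. Of the 5 genes at 64-fold or more toward S. cerevisiae, YOR180C rested on 0 and 1 S. bayanus reads, whereas YLR179C rested on 90 and 80.

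The alleles of YLR179C lay far apart in their genomes' expression ranges. Levels were compared between genes as CPM per kilobase of mappable sequence (RPKM). The S. cerevisiae allele, at 1562 RPKM over all lanes, ranked 106 from the top of 4197 and was above 97.5% of S. cerevisiae alleles, whose median was 91.4 RPKM. The S. bayanus allele, at 22.8 RPKM, was above 13.2% of S. bayanus alleles, whose median was 93.0 RPKM. The S. cerevisiae allele was above 97.7% of alleles in culture 1 and 97.2% in culture 2. The S. bayanus allele was above 10.6% in culture 1 and 19.4% in culture 2.

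**Figure D2:**
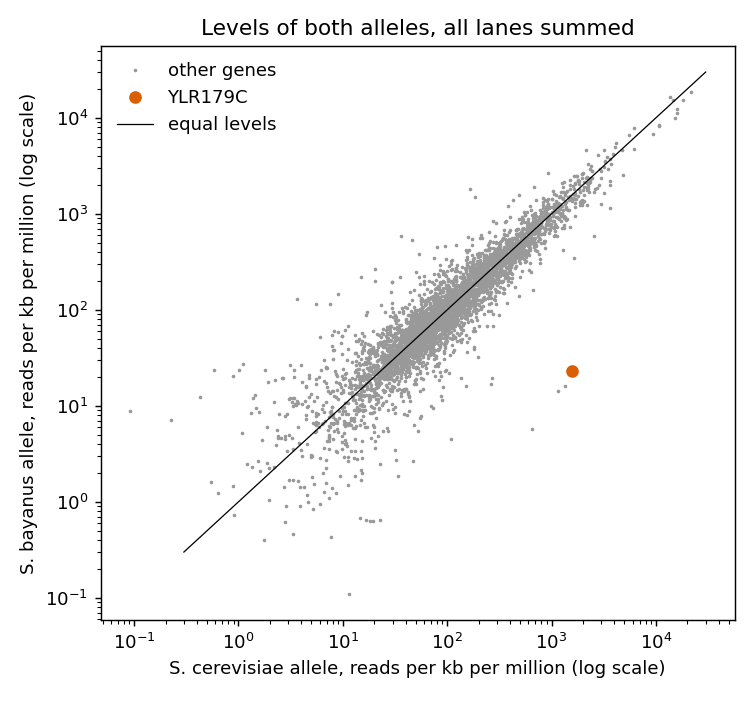
Levels of both alleles of each gene, in RPKM on log scales with all lanes summed; each grey point is a gene, the line marks equal levels, and 1 gene with an allele at 0 is not drawn. YLR179C lies far below the line, at 1562 RPKM for S. cerevisiae and 22.8 for S. bayanus.

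The orthologs themselves differ more than most. The S. bayanus ortholog is 660 bases long and the S. cerevisiae ortholog 606, a difference of 54 bases or 18 codons that is larger in size than that of 94.0% of the 4238 pairs, whose median is 3 bases. Of these lengths 99.9% are multiples of 3, so they are coding lengths. Reads could be mapped in 629 bases of the S. bayanus ortholog (95.3%) and in 572 of the S. cerevisiae ortholog (94.4%), above the medians of 91.0% and 90.9%. The mappable part was nearly equal between the alleles, and without the correction for mappable length the log2 ratio was -5.91. The S. bayanus ortholog is richer in GC by 6.41 percentage points, more than in 90.7% of pairs, whose median is 1.75. YLR179C falls in decile 10, the highest, of this GC difference, in which the median log2 ratio was 0.25, toward S. bayanus. YLR179C, chosen by its ratio, had the lowest of the 420 genes in that decile. With the trend of the ratio along the GC difference removed, its log2 ratio was -6.24.

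The S. bayanus share of YLR179C reads was higher in culture 2 than in culture 1. It was 1.35% (1.09 to 1.66, exact binomial interval at 95%) in culture 1 and 2.35% (1.87 to 2.91) in culture 2. The lanes of culture 1 ran from 1.10% to 1.78% and those of culture 2 from 2.05% to 2.75%, so they did not overlap. Shares whose lanes do not overlap between the cultures were found in 21.4% of the 4197 genes. The intervals cover counting error only and treat each read as independent, so any reads copied by PCR would make them too narrow.

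**Figure D3:**
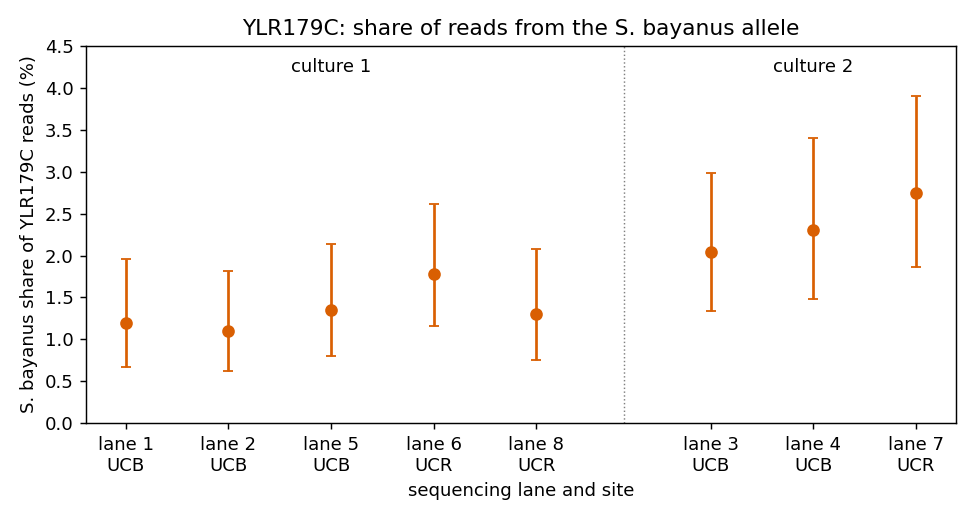
Share of YLR179C reads that came from the S. bayanus allele in each lane, in percent, with exact binomial intervals at 95% as bars. The lanes of culture 1 lie between 1.10% and 1.78% and those of culture 2 between 2.05% and 2.75%, and the intervals of all pairs of lanes overlap except those of lanes 2 and 7.

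By value, the S. bayanus allele differed more between the cultures than the S. cerevisiae allele. In CPM, the S. bayanus allele was 1.55-fold higher in culture 2 (counting interval 1.13 to 2.11), from 12.0 to 18.5. The S. cerevisiae allele was at 0.934 times its level in culture 1 (0.896 to 0.974), from 915 to 854. On the log2 scale these are 0.63 and -0.10, beside medians over all genes of -0.14 for S. bayanus alleles and -0.11 for S. cerevisiae alleles. The S. bayanus change was above that of 94.8% of genes and the S. cerevisiae change above that of 51.6%. The small change of the S. cerevisiae allele turns to 0.01 with TMM scaling and to 0.04 in the UCR lanes. The change of the S. bayanus allele was 0.75 with TMM scaling, 0.81 in the UCR lanes and 0.44 without lane 7.

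The allele ratio of YLR179C shifted by 0.72 ± 0.20 (standard error) on the log2 scale, or 1.65-fold (edgeR interaction test over lanes, adjusted p = 0.0118). The same test called 17.9% of all genes. It compares the libraries of the cultures beyond the spread between their lanes; with 1 library per culture, culture and library cannot be told apart. The call was lost without lane 7, the only UCR lane of culture 2 (0.65, adjusted p = 0.0764), and with the UCB lanes alone (0.76, adjusted p = 0.0783). Over all alternatives the shift stayed between 0.58 and 0.86, at adjusted p of 0.00472 to 0.0783.

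Across genes, this shift was larger mainly in the highest decile of the GC difference. In decile 10, which holds YLR179C, the median shift was 0.32 and 209 of 420 genes (49.8%) passed the test, against median shifts of -0.07 to 0.04 in the other deciles. In 99 of these 420 genes, YLR179C included, the shift was at least as large as its own. With the GC trend removed in each lane, the shift of YLR179C was 0.58 ± 0.22 (standard error; edgeR, adjusted p = 0.0533), no longer past the threshold.

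**Figure D4:**
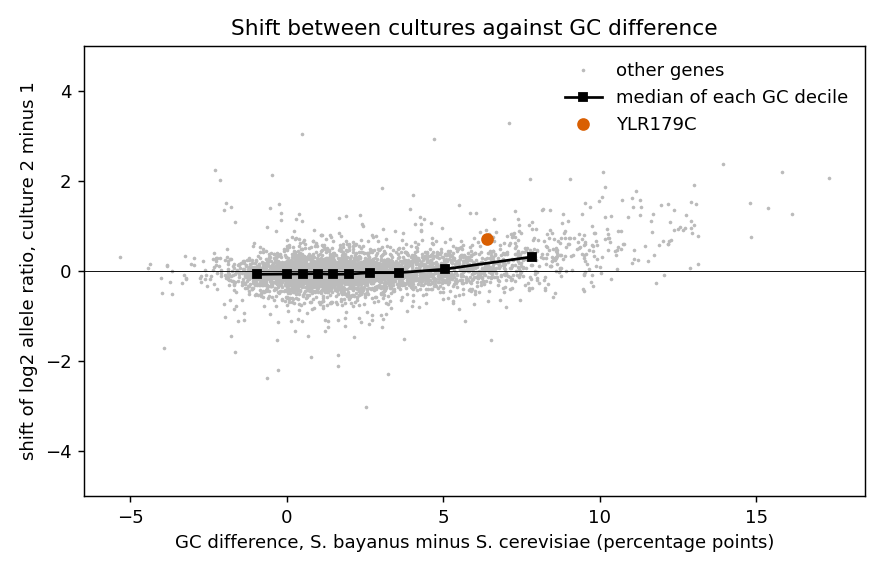
Shift of the log2 allele ratio between cultures (culture 2 minus culture 1) against the GC difference of the orthologs in percentage points; grey points are genes and squares the medians of deciles of the GC difference. YLR179C, at 6.41 points and a shift of 0.72, lies above the median of 0.32 in its decile.

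The site of sequencing, which is crossed with the cultures, showed no difference past the threshold. The test fits its terms to only 8 columns, with 1 lane for culture 2 at UCR, so it could miss a difference. In culture 1 the S. bayanus share was 1.22% (0.898 to 1.61) in the UCB lanes and 1.55% (1.12 to 2.09) in the UCR lanes. In culture 2 it was 2.16% (1.61 to 2.84) at UCB and 2.75% (1.86 to 3.90) at UCR. The share was higher at UCR in both cultures, and the intervals of the sites overlapped in each. The log2 ratio differed by 0.31 ± 0.21 (standard error; edgeR interaction test with a term for the culture, adjusted p = 0.906). No gene of 4197 passed this test (0%), and 221 had an unadjusted p under 0.05; with lanes as units, edgeR called 0 genes and 236 had an unadjusted p under 0.05. Within each site the share was higher in culture 2.

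The neighbours of YLR179C did not share its ratio. Of the 3 tested ORFs on each side in the order of systematic names, only YLR173W differed between the alleles, and toward S. bayanus; its log2 ratio was 0.96 ± 0.12 (standard error; edgeR, adjusted p = 0.00285). The nearest tested ORF on the lower side, YLR175W, was at -0.12 ± 0.08 (standard error; edgeR, adjusted p = 0.279). On the other side, YLR182W was at 0.25 ± 0.13 (standard error; edgeR, adjusted p = 0.169). YLR172C, YLR183C and YLR186W were at 0.03, 0.01 and 0.17. So 1 of these 6 ORFs passed the test, against 53.5% of all genes. Among the 299 tested ORFs of the arm, whose median was -0.01, YLR179C had the lowest ratio, and the next, YLR343W, was at -2.25. An extreme rank follows largely from the choice of the gene by its ratio. The ORFs between YLR175W and YLR182W other than YLR179C were not analysed here.

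**Figure D5:**
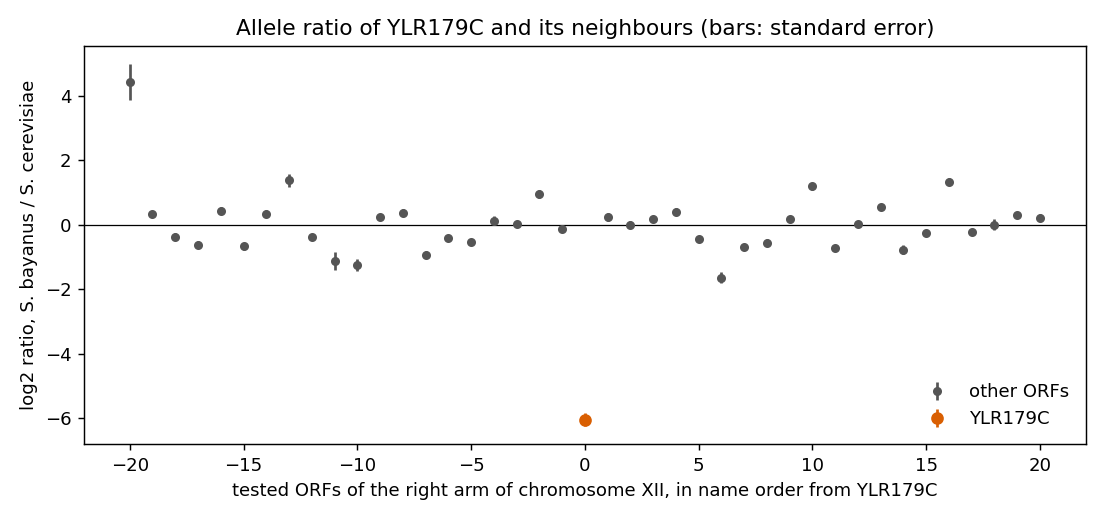
Fitted log2 ratio of S. bayanus to S. cerevisiae for YLR179C and the 20 tested ORFs on either side of it on the right arm of chromosome XII, in the order of their names; bars are standard errors. YLR179C lies at -6.05, and the next lowest ORF shown is at -1.64.

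The genes with the most similar ratios over the 8 lanes were YGL255W, YGR234W and YDR033W, among 4100 other genes with at least 10 reads of the lower allele in each culture. Likeness was the root mean square difference of the lane log2 ratios, which was 0.22 for YGL255W, 1.00 for YGR234W and 1.34 for YDR033W. Only YGL255W was close. It had 114 and 64 S. bayanus reads against 9987 and 3648 S. cerevisiae reads in cultures 1 and 2. The ratio of YGR234W differed between the libraries of the cultures by -1.06 ± 0.20 (standard error; edgeR, adjusted p = 0.000217). In the same test YGL255W differed by 0.54 ± 0.20 (adjusted p = 0.0893) and YDR033W by -0.24 ± 0.47 (adjusted p = 0.791), neither past the threshold.

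Genes around Tfs1 and YLR179C were read from 4 lists, whose ORFs were assigned from general knowledge because the files pair no ORF with a common name. Over all genes 26.6% differed with the S. bayanus allele higher and 26.9% with the S. cerevisiae allele higher, which is 1118 and 1129 genes; with 1 library size for both alleles the median over all genes was 0.11 and the split was 1320 and 813. Of 11 tested genes for vacuolar proteases, their sorting and the NatB acetylase, which acts on Tfs1, 3 were higher from S. bayanus, 4 were higher from S. cerevisiae and 4 did not pass. Of 16 tested genes of the Ras and protein kinase A pathway, 4 and 6 differed in these directions. Of 8 tested genes of multidrug resistance, a programme whose regulators Yrm1 and Yrr1 are reported to activate YLR179C, 4 and 3 differed. Of 18 tested stress-induced genes, 13 and 1 differed, also with the scaling of DESeq2 and with 1 library size. Under both of these the vacuolar genes were at 4 and 4 and the multidrug genes stayed at 4 and 3. The Ras genes were at 5 and 6 with 1 library size. The test between the libraries of the cultures called 8 of the stress-induced genes (44.4%), against 17.9% of all genes. Of these, 6 shifted toward S. bayanus in culture 2 and 2 toward S. cerevisiae. That test called 0 of the vacuolar, 2 of the Ras and 2 of the multidrug genes. The medians of the log2 ratio were 0.01, -0.14, 0.08 and 0.69, beside 0.00 over all genes; with 1 library size they were 0.13, -0.03, 0.19 and 0.79, beside 0.11. Over the 53 listed genes the ratios ran from -2.22 to 3.07, the last on 12 and 5 S. cerevisiae reads in cultures 1 and 2. None came near that of YLR179C, which was chosen by its ratio.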

How the data were processed

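Reads were mapped with Bowtie, per the submitters' processing notes; the version, genome builds, annotation and treatment of reads shared by the genomes had no statement in the sources used here. The authors deposited raw counts per ortholog, lane and allele. They also deposited lengths and mappable bases, the GC difference, natural log ratios with a started value that is not given, resampling p-values (not used here) and a score of -1, 0 or 1 as a call. Another 4 columns, sums per replicate, were not used.

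Lanes were summed per culture. The allele test was run in edgeR 4.0.16 (R 4.3.3; quasi-likelihood) on 4 columns with the culture as block, TMM factors and the log mappable length as offset; genes needed at least 10 reads in each culture, which 4197 met. The site test used 8 columns per culture, site and allele; the culture test used 16 lane columns. A gene passed when its p adjusted by Benjamini-Hochberg over all genes was under 0.05. DESeq2 1.42.0 was an alternative. Lane ratios had a pseudocount of 0.5; levels between genes and percentages came from Python 3.11.15 with scipy 1.17.1. The fits were tested on simulated data. Named genes were YLR179C, the 3 tested ORFs on each side, the 3 most similar genes and, after their values were seen, the genes next to it in rank over all genes (with YOR180C) and on the arm (YLR343W). Single listed genes were not named, since no table of names was used. The gene and the lists were chosen with earlier results of these data known. The p-values of the allele test measure the spread between 2 cultures, and those of the culture test the spread between lanes. Those of the site test measure what is left between the sums per culture and site after the terms for culture and site.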

Additional observations from a re-analysis of the deposited data

Results flagged for a closer look

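The allele ratio of YLR179C drew attention because the interaction test found it to differ between the libraries of the cultures beyond the spread of their lanes, by 0.72 on the log2 scale (edgeR, adjusted p = 0.0118; S. bayanus share 1.10% to 1.78% in the 5 lanes of culture 1 and 2.05% to 2.75% in the 3 lanes of culture 2). This test called 17.9% of all genes, and 49.8% of those in the decile of GC difference that holds YLR179C. Lane shares did not overlap between the cultures in 21.4% of all genes. With 1 library per culture, library and culture cannot be told apart. The call was lost with the GC trend removed (edgeR, adjusted p = 0.0533), without lane 7 (0.0764) and with the UCB lanes alone (0.0783). By Dixon's test for 5 values (critical value 0.71), no lane of culture 1 lay apart from its other lanes in the levels, share or ratio of YLR179C. Lane 6 had the highest share in that culture, 1.78%, and lane 5 the next, 1.36%. The lanes of culture 2 are not covered by this check.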

How the results depend on the processing

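The log2 ratio of YLR179C lay between -6.41 (culture 1 alone) and -5.66 (culture 2 alone) under 21 alternatives. Its sign could hardly change, since the gene was chosen by a large ratio. Its shift between cultures kept its direction under 15 alternatives and was no longer past the threshold in 3: with the GC trend removed (0.58), with the UCB lanes alone (0.76) and without lane 7; it was 0.65 to 0.86 when lanes were left out in turn. The shift between sites was 0.21 to 0.41 under 14 alternatives and passed in none; without lane 7 it is a value with no test. The change of the S. cerevisiae allele between cultures, -0.10, turned to 0.0088 with TMM scaling and 0.042 in the UCR lanes, alternatives chosen after seeing the data. The change of the S. bayanus allele, 0.63, ran from 0.44 to 0.81 under 11 such alternatives. The allele test called 2247 genes, 1480 with DESeq2 and 866 with no replicate block; with 1 library size for both alleles 1320 were higher from S. bayanus and 813 from S. cerevisiae, against 1118 and 1129. The culture test called 752 genes, and 408 in the UCB lanes. The site test called 0 genes, and 0 to 6 with each lane but lane 7 left out. The causes were not tested, and leaving lanes out also lowers the number of reads. With 170 S. bayanus reads in all, counting error limits the share and its shift.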
